A study of Homo sapiens with 14 samples.

Results

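The genes described here are 7 matrix metalloproteinases, MMP1, MMP3, MMP10, MMP7, MMP2, MMP9 and MMP14, and 3 of their tissue inhibitors, TIMP1, TIMP2 and TIMP3. These 10 members were found by symbol in the annotation of the array, where they hold 11 rows, and are 10 of 18398 named genes and 10 of 26 measured MMP and TIMP genes. The set was proposed with one result already known, the higher MMP1 and MMP10 signal of inhibitor-grown cells in the comparison with the same cells grown without inhibitor. That comparison is therefore given as a description: counts of calls in it are printed beside the share of all genes called, support nothing, and carry no p-value.

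The samples are OVCAR-3 cells, a long-established line grown from a human ovarian carcinoma. RNA was measured on 14 whole-transcript arrays. Parental cells, grown without inhibitor, gave 4 arrays. Resistant cells came from 5 separately derived sublines, named R1, R3, R5, R6 and R7, selected with PHA-533533, an inhibitor of the cell cycle kinase CDK2. The selected arrays hold each subline at passage 5 in 4 µM inhibitor, and the stable arrays hold it in 0 µM inhibitor, from passage 10 on. Inhibitor and passage thus changed together and cannot be told apart. Whether the parental replicates are separate cultures is not stated in the labels, and a p-value against them therefore reflects only how far these samples spread, possibly for technical reasons. Each subline had 1 array per state. In bulk RNA, fewer expressing cells and less RNA per cell cannot be told apart.

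Matrix metalloproteinases are zinc-dependent proteases that are made as inactive proenzymes and cut collagens, laminins and many cell surface proteins once their prodomain is removed. TIMPs are secreted proteins that bind the active site of these proteases and block it. In epithelial tumours the interstitial collagenase MMP1 and the stromelysin MMP10 are known targets of AP-1, the FOS and JUN transcription factor dimer, and much of the remaining MMP activity comes from stromal cells, which a cultured line does not contain.

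The genes MMP7, MMP10, MMP1 and MMP3 lie in 1 cluster on chromosome 11, in this order with other MMP genes between MMP7 and MMP10, while the other 6 members lie on 6 other chromosomes. A promoter sequence was matched for 5 of the 10 members, MMP10, MMP7, MMP14, TIMP1 and TIMP3. The 250 bases before the start of 3 of them are shown, MMP10, MMP7 and TIMP1, which held a match to the motifs below. They were picked with the selected against stable differences known, so their matches describe sequence only. Whether a match bears on the signal was not tested. The sequences are from RefSeq, build GRCh38.p14: MMP10 at chr11:102780629-102780878 and MMP7 at chr11:102530748-102530997, both on the minus strand, and TIMP1 at chrX:47582186-47582435 on the plus strand. Each is written 5′ to 3′ along the gene. Capitals mark matches to the AP-1 motif TGANTCA, to its variant TGAGTAA (both strands searched) and to the TATA box TATAAA (gene strand only); no 2 of these matches overlap.
MMP10: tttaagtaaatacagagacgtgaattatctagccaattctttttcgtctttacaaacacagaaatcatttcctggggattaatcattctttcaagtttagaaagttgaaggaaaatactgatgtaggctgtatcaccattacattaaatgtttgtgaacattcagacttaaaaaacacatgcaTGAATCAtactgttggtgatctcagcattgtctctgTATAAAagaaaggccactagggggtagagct
MMP7: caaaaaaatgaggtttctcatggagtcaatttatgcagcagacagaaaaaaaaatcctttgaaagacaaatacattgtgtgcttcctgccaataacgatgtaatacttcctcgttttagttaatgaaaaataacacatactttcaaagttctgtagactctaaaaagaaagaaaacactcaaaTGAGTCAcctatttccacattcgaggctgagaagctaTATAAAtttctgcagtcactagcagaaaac
TIMP1: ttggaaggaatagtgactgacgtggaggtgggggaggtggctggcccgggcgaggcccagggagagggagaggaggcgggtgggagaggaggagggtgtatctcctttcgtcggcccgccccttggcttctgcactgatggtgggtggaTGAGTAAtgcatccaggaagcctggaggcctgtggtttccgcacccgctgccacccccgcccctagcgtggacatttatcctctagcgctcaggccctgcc
Counting back from -1 at the last base before the start, the AP-1 match spans bases -67 to -61 in both MMP10 and MMP7, reading TGAATCA in the first and TGAGTCA in the other. The TATA box follows at base -31 in MMP10 and at base -30 in MMP7. TIMP1 holds the variant TGAGTAA at bases -101 to -95 and an AGGAAG match, a motif of ETS factors, at bases -87 to -82. MMP7 also holds AGGAAG on the opposite strand, at bases -169 to -164 and -145 to -140. None of these motifs was found in the windows of MMP14 and TIMP3. Of 35116 promoters of this length 6.57% held TGANTCA, 2.21% TGAGTAA, 28.7% AGGAAG and 6.80% TATAAA. A match describes the letters and does not show a bound site.

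Values are signal on a log scale taken as base 2, with a range of 4.34 to 14.9 over all rows and arrays and array medians of 7.54 to 7.68. With 4 or 5 arrays a group, their number sets the precision. Of the 10 members MMP1, TIMP1, TIMP2 and TIMP3 had a mean above the 40th percentile of all genes, which lay at 7.60, and MMP3, MMP10, MMP7, MMP2, MMP9 and MMP14 did not, so their signal is dim. As a measure of background, the mean of 337 olfactory receptor genes, few of which are transcribed outside the nose, lay between 6.16 and 6.71 on parental, 6.06 and 6.60 on selected and 6.18 and 6.69 on stable arrays. MMP3 lay below this mean on 14 of 14 arrays, MMP7 on 13 of 14, all but selected R7, and MMP10 on 2, those of stable R3 and R5, so values of MMP3 and MMP7 are not above background and their differences are not read as differences in RNA. Markers fixed for ovarian carcinoma epithelium were all above that percentile, 12 of 12, with a mean of 10.84 to 11.43 over all arrays, against 3 of 10 fibroblast, 2 of 7 leukocyte and 0 of 5 endothelial markers. The fibroblast mean lay between 6.57 and 6.86 on parental, 6.54 and 6.74 on selected and 6.55 and 6.78 on stable arrays, and limma called 0 genes of these marker lists in any comparison (at an unadjusted p under 0.05, 7 epithelial and 1 fibroblast for selected against parental, 0 and 1 for stable against parental, and 2 and 0 for selected against stable).

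**Figure D1:**
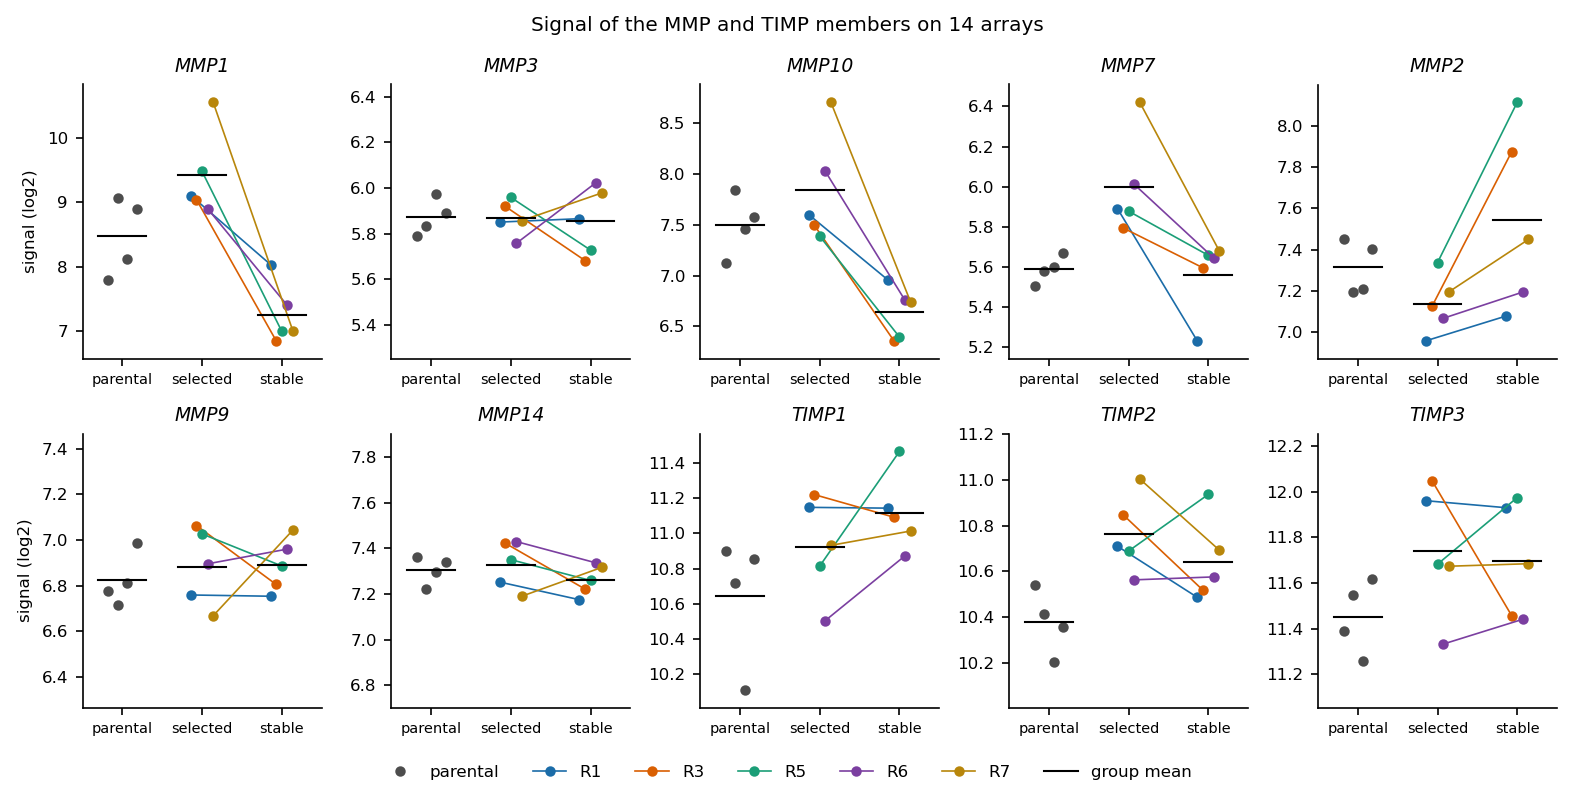
Signal (log2) of each of the 10 members on the 14 arrays. Grey points are the 4 parental arrays in the order of their replicate numbers, coloured points joined by a line are the selected and stable arrays of 1 subline, and black bars are group means; the vertical scales differ between panels. MMP1, MMP10 and MMP7 lie lower in the stable than in the selected array of every subline, and MMP2 lies higher.

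The collagenase MMP1, which cuts fibrillar collagen, was the member with the widest spread. Its signal was 7.79, 9.07, 8.12 and 8.90 in parental replicates 1 to 4. In selected cells the values were 9.11, 9.05, 9.48, 8.90 and 10.56 for R1, R3, R5, R6 and R7. In stable cells they were 8.03, 6.85, 6.998, 7.40 and 7.003 in the same order. Every selected array lay above every stable array, which was also so for MMP10, MMP7 and 2.83% of all genes, while parental replicate 2 lay among the selected arrays, replicate 4 at 8.903 next to the lowest of them at 8.904, and replicates 1 and 3 close to the stable array of R1. The difference of selected from parental cells was 0.95 (SE 0.34, n = 5 and 4) and did not pass (limma, adjusted p = 0.126). That of stable from parental cells was -1.21 (SE 0.30, n = 5 and 4), and it did not pass either (adjusted p = 0.342).

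MMP10, the stromelysin whose gene neighbours MMP1, showed the same order at lower signal. It was 7.12, 7.84, 7.46 and 7.58 in parental replicates 1 to 4. Selected cells had 7.60, 7.50, 7.39, 8.03 and 8.70 for R1, R3, R5, R6 and R7, and stable cells 6.95, 6.36, 6.40, 6.76 and 6.74. All 5 stable arrays lay below all parental and all selected arrays, and the selected arrays of R1, R3 and R5 lay within the parental range. Stable minus parental was -0.86 (SE 0.16) and did not pass (limma, adjusted p = 0.186); selected minus parental was 0.34 (SE 0.24, adjusted p = 0.517), 0.127 without selected R7 and 0.217 without parental replicate 1. With array weights, which give arrays of larger residuals less influence, stable cells passed for both MMP10, at -0.81 (adjusted p = 0.0277), and MMP1, at -1.24 (adjusted p = 0.0457). Over the other alternatives the adjusted p for stable cells lay between 0.0521 and 0.680 for MMP10 and between 0.0698 and 0.974 for MMP1, so both calls rested on that setting.

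MMP7, matrilysin, a small MMP of epithelial cells without the hinge and hemopexin domains of the other MMPs described here, had dim signal of 5.50, 5.58, 5.60 and 5.67 in parental replicates. The selected arrays had 5.89, 5.79, 5.88, 6.01 and 6.42 for R1, R3, R5, R6 and R7, and the stable arrays 5.23, 5.60, 5.66, 5.64 and 5.68. All selected arrays lay above all parental and all stable ones, but only that of R7 above the olfactory receptor mean. The difference of selected from parental cells, 0.41 (SE 0.12), missed the threshold (limma, adjusted p = 0.0557), and it passed in 3 of 18 alternatives, with adjusted p between 0.0339 and 0.145 over all 18. Stable cells differed from parental ones by -0.03 (SE 0.10, adjusted p = 0.999).

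MMP3, stromelysin 1, a close relative of MMP10 whose gene lies on the other side of MMP1, lay between 5.68 and 6.02, below the olfactory receptor mean on all 14 arrays, and its groups overlapped. Whether its RNA differed between the groups cannot be read from these values. Selected minus parental was -0.003 (SE 0.07, limma, adjusted p = 0.991) and stable minus parental -0.02 (SE 0.09, adjusted p = 0.999), and under 9 of 18 and 5 of 18 alternatives the sign turned.

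Among the gelatinases, which cut denatured collagen and basement membrane collagen, the spread between subline means was 0.71 for MMP2 and 0.20 for MMP9. On the selected arrays alone MMP2 did not spread more than MMP9 (SD 0.14 and 0.17). MMP2 was 7.45, 7.19, 7.21 and 7.41 in parental replicates, 6.96, 7.12, 7.34, 7.07 and 7.19 in selected R1, R3, R5, R6 and R7, and 7.08, 7.87, 8.11, 7.19 and 7.45 in the stable arrays of the same sublines. The stable arrays of R3 and R5 stood above every other array, and the other stable arrays were within or below the parental range. The difference from parental cells was -0.18 (SE 0.09, limma, adjusted p = 0.324) in selected and 0.23 (SE 0.19, adjusted p = 0.999) in stable cells, the latter 0.143 without stable R3, 0.0834 without stable R5 and 0.342 without stable R1. MMP9 lay between 6.67 and 7.06 on all arrays, with differences of 0.06 (SE 0.10, adjusted p = 0.816) and 0.07 (SE 0.09, adjusted p = 0.999). MMP14, a membrane-bound MMP that activates the MMP2 proenzyme, lay between 7.18 and 7.43, with differences of 0.02 (SE 0.08, adjusted p = 0.911) and -0.04 (SE 0.07, adjusted p = 0.999); in selected cells the sign turned without parental replicate 2 (-0.004) and without the selected array of R6 (-0.001).

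TIMP2, which inhibits MMPs and also takes part in the activation of the MMP2 proenzyme by MMP14, was the only member to pass a test against parental cells. It was 10.54, 10.41, 10.20 and 10.36 in parental replicates and 10.71, 10.85, 10.69, 10.56 and 11.004 in selected R1, R3, R5, R6 and R7. The lowest selected array lay just above the highest parental one. TIMP2 rose by 0.39 (SE 0.10, a 1.31-fold difference) in selected cells (limma, adjusted p = 0.0410). Stable arrays had 10.49, 10.52, 10.94, 10.58 and 10.69 and overlapped the parental arrays, with a difference of 0.27 (SE 0.11, adjusted p = 0.742). The call in selected cells was lost without parental replicate 2 (adjusted p = 0.0685), 3 (adjusted p = 0.104) or 4 (adjusted p = 0.119), without the selected array of R1 (adjusted p = 0.0551), R3 (adjusted p = 0.0899), R5 (adjusted p = 0.0518) or R7 (adjusted p = 0.0909), and when all rows were tested (adjusted p = 0.0791), with differences of 0.325 to 0.404 in these fits.

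TIMP1 and TIMP3, the latter a TIMP that stays bound to the matrix, had positive differences in both states, none of which passed. TIMP1 was 10.90, 10.72, 10.11 and 10.85 in parental replicates and ran from 10.51 in R6 to 11.22 in R3 in selected arrays and from 10.87 in R6 to 11.46 in R5 in stable ones. Its difference was 0.28 (SE 0.18, limma, adjusted p = 0.454) in selected and 0.47 (SE 0.17, adjusted p = 0.637) in stable cells, and parental replicate 3 was the lowest of all 14 arrays. Without that array the TIMP1 difference was 0.101 in selected and 0.294 in stable cells. TIMP3 ran from 11.26 to 11.62 in parental, from 11.33 in R6 to 12.05 in R3 in selected and from 11.44 in R6 to 11.97 in R5 in stable arrays. The differences were 0.29 (SE 0.14, adjusted p = 0.270) and 0.24 (SE 0.13, adjusted p = 0.877), and with the mean of both TIMP3 rows 0.30 (adjusted p = 0.317) and 0.22 (adjusted p = 0.976). Subline R6 had the lowest TIMP1 and TIMP3 signal of the 5 sublines in both states.

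Against parental cells, limma called 1 of 10 members in selected cells, TIMP2, beside 6.92% of all genes, and 0 of 10 in stable cells, beside 0.00544% of all genes. At an unadjusted p under 0.05 there were 3 of 10 members in selected cells (MMP1, MMP7 and TIMP2, beside 20.3% of all genes) and 4 of 10 in stable cells (MMP1, MMP10, TIMP1 and TIMP2, beside 6.09%). The median difference of the 10 members was 0.28 in selected and 0.03 in stable cells, against -0.01 and -0.004 over all genes. Every selected array lay above every parental one for MMP7 and TIMP2, which 6.81% of all genes also showed, and every stable array lay below every parental one for MMP10, which 1.42% showed. These 2 comparisons share the 4 parental arrays.

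**Figure D2:**
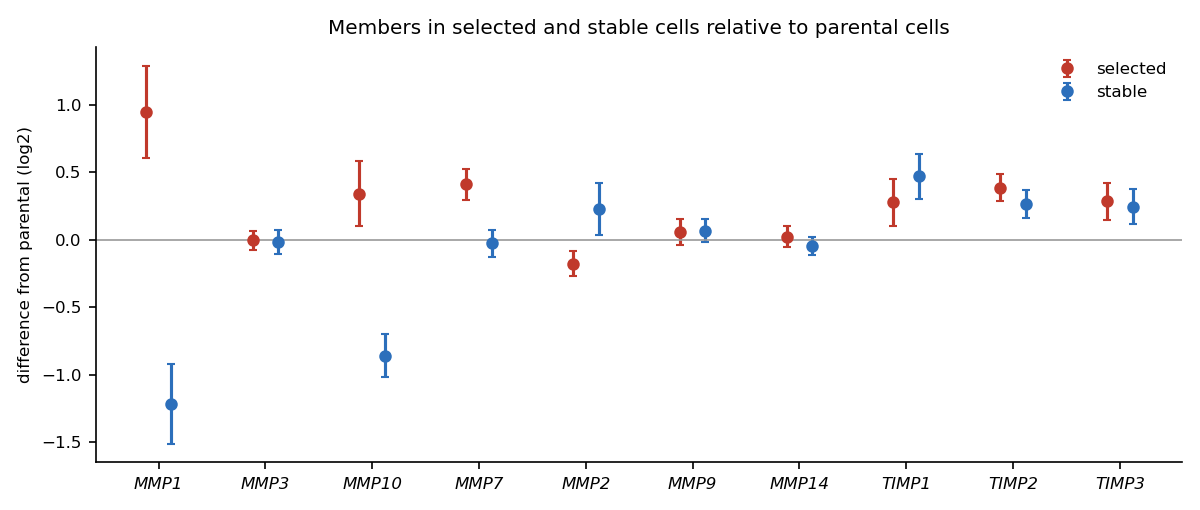
Difference from parental cells (log2) of the 10 members in selected cells (red, 5 arrays) and stable cells (blue, 5 arrays), each against the 4 parental arrays; points are limma estimates and bars are their standard errors. MMP1 lies at 0.95 in selected and at -1.21 in stable cells, and the 3 TIMP genes lie above 0 in both states.

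Within the 5 sublines, the selected minus stable difference of MMP1 was 1.08, 2.20, 2.49, 1.51 and 3.56 for R1, R3, R5, R6 and R7, with a mean of 2.16 ± 0.96 (SD, n = 5), a 4.48-fold difference. For MMP10 it was 0.65, 1.14, 0.99, 1.27 and 1.96, with a mean of 1.20 ± 0.49 (SD, n = 5), or 2.30-fold. Stable MMP10 lay below the olfactory receptor mean in R3 and R5. It lay close above that mean in R6 (6.76 against 6.63) and R7 (6.74 against 6.69), and further above in R1 (6.95 against 6.18). Background may therefore limit the size of this fold. MMP7 differed by 0.66, 0.20, 0.22, 0.37 and 0.74, with a mean of 0.44 ± 0.25 (SD, n = 5). Its signal lay below the olfactory receptor mean on all arrays but selected R7, so this is not read as a difference in RNA. R7 had the largest difference for all 3 genes, and R1 had the smallest for MMP1 and MMP10. The selected array was the higher one in all 5 sublines for these 3 members, as for 11.8% of all genes, and the lower one in all 5 for MMP2, as for 7.35% of all genes. MMP2 differed by -0.12, -0.75, -0.77, -0.13 and -0.25, with a mean of -0.41 ± 0.33 (SD, n = 5). The other 6 members had both signs among the 5 sublines, with means between -0.19 for TIMP1 and 0.12 for TIMP2.

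The olfactory receptor mean was also lower in the selected array of all 5 sublines, at -0.12, -0.13, -0.10, -0.04 and -0.38 for R1, R3, R5, R6 and R7, so R7 had the largest difference there too. With this mean as a covariate the difference was 2.04 for MMP1, 1.20 for MMP10 and 0.51 for MMP7, and with both this mean and subline as a block it was 1.24, 0.77 and 0.24. Without both arrays of R7 it was 1.82, 1.01 and 0.36. By limma MMP1 and MMP10 were among the 2.16% of all genes called between the states (4 of 10 members and 15.3% of all genes at an unadjusted p under 0.05), and with subline as a replicate block MMP1, MMP10 and MMP7 were among 4.92%. Without both arrays of R7 limma's count of called members was 0 without the block (3 at an unadjusted p under 0.05) and 2, MMP1 and MMP10, with it. The block with the olfactory receptor mean gave 0 (2 at an unadjusted p under 0.05). The members were chosen with this difference known, so nothing is read from any of these counts.

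**Figure D3:**
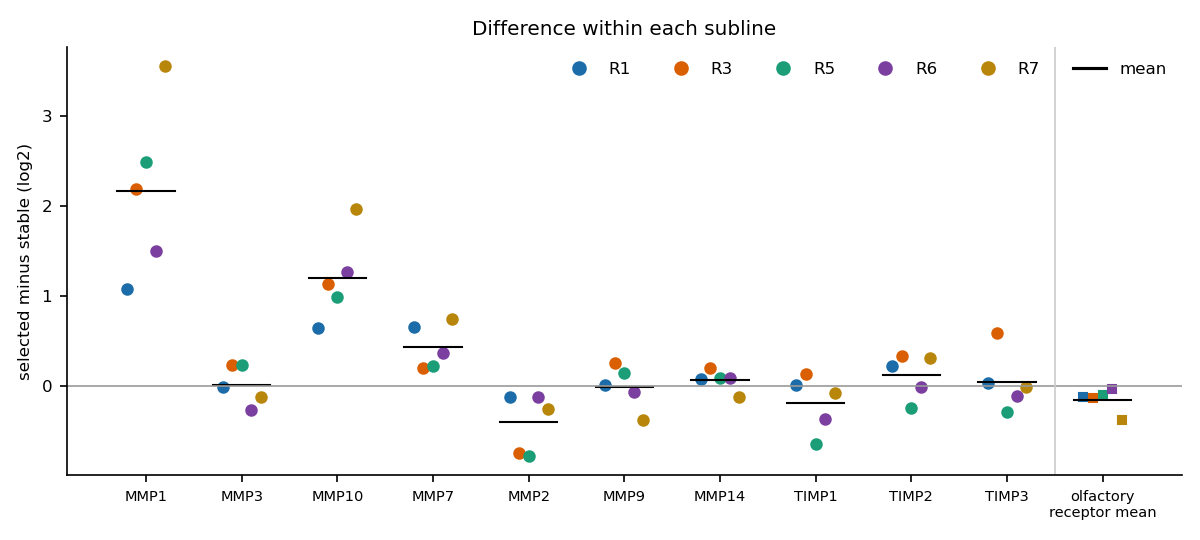
Selected minus stable signal (log2) within each of the 5 sublines for the 10 members, and at the right, as squares, for the mean of 337 olfactory receptor genes; black bars are means over the sublines. The 5 points of MMP1, MMP10 and MMP7 lie above 0 and those of MMP2 below, and R7 is highest for MMP1 at 3.56 and lowest for the olfactory receptor mean.

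Between sublines, with growth condition as a covariate, limma's F test called 0 of 10 members, beside 0.120% of all genes, and 2 of 10 had an unadjusted p under 0.05, beside 15.8%. These were MMP2, with a mean of 7.72 in R5 and 7.02 in R1 (adjusted p = 0.255), and MMP10, with a mean of 7.72 in R7 and 6.89 in R5 (adjusted p = 0.305). The spread between subline means was 0.83 for MMP1, 0.47 for TIMP1, 0.56 for TIMP3 and 0.28 for TIMP2.

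Over the 14 arrays, of all 18398 genes, MMP10 had the highest Pearson r with MMP1 (r = 0.93, Spearman rho = 0.86), and MMP1 the highest with MMP10. By rho neither was first. TM2D3 (rho = 0.91) and RAB11FIP2 (rho = 0.895) exceeded MMP10 for MMP1, and FGFR2 (rho = 0.95) exceeded MMP1 for MMP10. The arrays share the 3 groups, and both genes were chosen for their difference between 2 of them, so this is a description and carries no p. Without the arrays farthest from the median of MMP1, those of selected R7 and stable R3, r between MMP1 and MMP10 was 0.86. The first rank was lost there too, since RAB11FIP2 had 0.89 with MMP1 and JUN had 0.91 with MMP10. By r over all 14 arrays, next after MMP10 for MMP1 were RAB11FIP2 (r = 0.90), TM2D3 (r = 0.90), MCM2 (r = 0.90) and CALCB (r = 0.89). Next after MMP1 for MMP10 were CDKN2AIP (r = 0.89), FGFR2 (r = 0.89), UBAC1 (r = 0.88) and MACROH2A1 (r = 0.87).

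Of the AP-1 genes, FOS was 10.45, 11.26, 10.44 and 11.31 in parental replicates, between 10.05 and 10.92 on selected and between 8.01 and 9.46 on stable arrays. In parental cells replicates 2 and 4 were the higher arrays for both FOS and MMP1, and among stable arrays R1 was the highest for FOS, MMP1 and MMP10. Selected R6 had the highest FOS and the lowest MMP1 of the selected arrays. FOS was at -0.54 in selected against parental cells, where MMP1 was at 0.95. In stable against parental cells FOS was at -2.48 and MMP1 at -1.21. These are single arrays and group means, and whether AP-1 acts on MMP1 or MMP10 in these cells was not tested. By Pearson r over the 14 arrays FOS ranked 228 among all genes for MMP1 (r = 0.76, rho = 0.58) and 42 for MMP10 (r = 0.80, rho = 0.77). JUN ranked 842 for MMP1 (r = 0.66) and 445 for MMP10 (r = 0.65), and FOSL1 had r of -0.40 and -0.435. Without selected R7 and stable R3, r with MMP1 and MMP10 was 0.80 and 0.895 for FOS. It was 0.86 and 0.91 for JUN, and -0.175 and -0.21 for FOSL1. These values are a description, since the arrays share the 3 groups. JUN lay between 10.08 and 10.42 on the parental, 10.16 and 10.31 on the selected and 9.25 and 10.23 on the stable arrays, and FOSL1, a FOS relative, between 8.77 and 9.28 on all arrays. Neither FOS (0.184 and 0.0524), JUN (0.943 and 0.444) nor FOSL1 (0.346 and 0.999) passed in selected or in stable against parental cells by limma, adjusted p in that order. Selected minus stable FOS was 0.59, 2.13, 1.98, 2.715 and 2.27 for R1, R3, R5, R6 and R7, with a mean of 1.94. The mean was 0.61 for JUN, higher in the selected array of 4 sublines, and 0.51 for FOSB, higher in all 5. For FOSL1 it was -0.13, with 1 subline higher. Of all genes 11.8% were higher in all 5 sublines. FOSB fell by 0.92 in selected cells (adjusted p = 0.0391), with parental arrays between 9.06 and 10.22 and selected arrays between 8.51 and 9.16, a call lost in 8 of 19 alternatives. In stable cells FOSB was further from parental cells, at -1.43, but did not pass (limma, adjusted p = 0.0881).

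**Figure D4:**
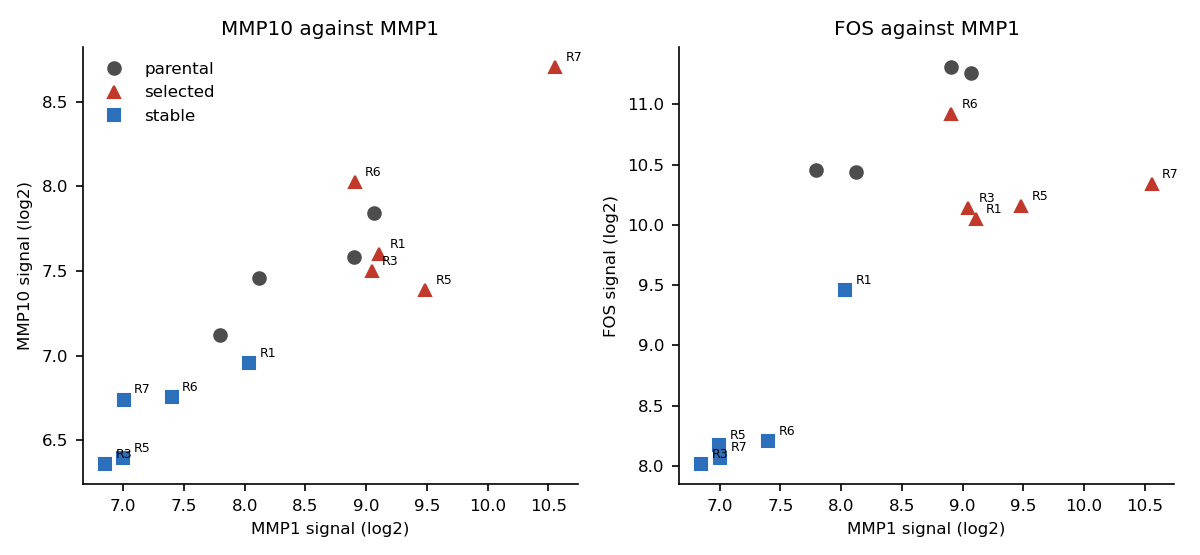
Signal (log2) of MMP10 (left) and FOS (right) against that of MMP1 on the 14 arrays; circles are parental, triangles selected and squares stable arrays, with the subline beside each selected and stable point. The stable arrays lie lowest for MMP10 and FOS, stable R1 overlaps the parental arrays for MMP1, and selected R7 has the highest MMP1 and MMP10 but not the highest FOS.

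The remaining MMP family genes and the genes that act with MMPs were counted from lists that hold 116 measured genes beside the members. In selected cells 9 of the 116 were higher and 6 lower by limma, beside 5.03% and 1.89% of all genes. In stable cells 0 of 116 passed, beside 0.00544% of all genes, and 16, or 13.8%, had an unadjusted p under 0.05, beside 6.09% of all genes. The median difference of the 116 genes was -0.02 in selected and -0.002 in stable cells, close to that of all genes.

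Of 16 further MMP and TIMP genes 0 passed by limma in either state, and 0 had an unadjusted p under 0.05. Only 2 of the 16 had a mean above the 40th percentile of all genes. The smallest p in either comparison was that of MMP21 in stable cells, followed by that of the membrane-bound MMP15 in selected cells. MMP21 was at -0.14 in selected cells (adjusted p = 0.405) and -0.18 in stable cells (adjusted p = 0.832), and MMP15 at -0.23 in selected cells (adjusted p = 0.265) and -0.12 in stable cells (adjusted p = 0.999). MMP15 passed in selected cells in 1 of 19 alternatives, the one with the olfactory receptor mean. On the chromosome 11 stretch from YAP1 to DYNC2H1, 14 genes were measured, 4 members among them, and 1 rose in selected cells, the apoptosis inhibitor BIRC2 by 0.46 (SE 0.12, adjusted p = 0.0375), a call lost in 10 of 19 alternatives. In stable cells 0 of the 14 passed, and 2, the members MMP1 and MMP10, had an unadjusted p under 0.05, beside 6.09% of all genes. Both were chosen with their selected against stable difference known, so nothing is read from this count about the stretch.

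Among 16 genes of the plasminogen system and other inhibitors, 2 rose and 1 fell in selected cells. PLAU, the urokinase protease that activates plasminogen, which in turn can activate MMP proenzymes, was 9.35 to 9.86 in parental and 10.24 to 11.17 in selected arrays and rose by 1.07 (SE 0.19, limma, adjusted p = 0.00732). In stable cells PLAU was 9.75 in R7, 9.80 in R6, 9.93 in R1, 10.33 in R5 and 11.30 in R3, a difference of 0.61 (SE 0.28, adjusted p = 0.820). SERPINB5, the serpin maspin, rose by 1.05 (SE 0.24, adjusted p = 0.0228), and the proteoglycan SPOCK2 fell by 1.13 (SE 0.22, adjusted p = 0.0131). PLAU and SPOCK2 kept their calls in all 19 alternatives, and SERPINB5 lost its call in 6. Of 14 ADAM and ADAMTS proteases 1 rose, the aggrecanase ADAMTS1, by 0.45 (SE 0.10, adjusted p = 0.0236), and it lost its call in 7 of 19 alternatives.

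Substrates and binding partners of MMPs had 4 rises and 0 falls in selected cells. Of 21 matrix and pericellular substrates, NID2, a basement membrane protein, CD44, a hyaluronan receptor that is shed by MMPs, and SPP1, osteopontin, rose. Their differences were 1.64 (SE 0.19), 1.46 (SE 0.20) and 0.85 (SE 0.17), with limma's adjusted p at 0.00115, 0.00263 and 0.0142. SPP1 lay below the olfactory receptor mean on every parental array and on selected R6 (6.56 against 6.60), and above it on the other selected arrays. Its difference therefore starts from background, and its size is not read as a size in RNA. SPP1 lost its call without parental replicate 4 (adjusted p = 0.0519) and in 1 fit of all 14 arrays. Of 11 surface partners ITGA2, the collagen-binding integrin subunit to which MMP1 is known to bind, rose by 0.99 (SE 0.10, adjusted p = 0.000823). ITGA2 was 7.41 to 7.64 in parental and 8.21 to 8.67 in selected arrays without overlap, and 7.64 in R7 to 9.26 in R3 in stable ones. NID2, CD44 and ITGA2 kept their calls in all 19 alternatives. In stable cells the differences from parental cells were 1.69 for NID2, 1.10 for CD44, 0.45 for SPP1 and 0.67 for ITGA2. None of the 4 passed there by limma (adjusted p = 0.121 for NID2, 0.444 for CD44, 0.992 for SPP1 and 0.742 for ITGA2). NID2 lay at 10.79 to 12.32 on stable and 9.55 to 10.25 on parental arrays, and CD44 at 9.22 to 11.03 and 8.50 to 9.09. A missed call is thus not read as a return to the parental level.

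Of 14 cytokines and receptors known to induce MMPs, 2 fell in selected cells, TNF by 0.57 (SE 0.12, limma, adjusted p = 0.0136) and CXCL8 by 0.69 (SE 0.17, adjusted p = 0.0349), and 0 rose. TNF lay at 6.40 to 6.77 on selected arrays, not far above the olfactory receptor mean, in R6 at 6.62 against 6.60. Background may therefore limit the size of its fall. Of 19 genes in the list of AP-1, ETS and RUNX factors, which also holds EGR1 of another family, 3 fell and 1 rose. EGR1 fell by 0.59 (SE 0.15, adjusted p = 0.0364), FOSB is given above, the ETS factor ETS1 fell by 0.65 (SE 0.18, adjusted p = 0.0491), and the epithelial ETS factor ELF3 rose by 0.63 (SE 0.14, adjusted p = 0.0196). In stable cells EGR1 was further from parental cells, at -1.56 (SE 0.27), but did not pass (limma, adjusted p = 0.135). ETS1 was at -0.16 and ELF3 at -0.22 there. The 6 calls of these 2 lists in selected cells were lost in 2 to 10 alternatives each, TNF without parental replicate 4 (adjusted p = 0.0511) among them. Without parental replicate 4, 6 of the 116 list genes were called, 9 when selected R3 was left out and 8 when selected R7 was, against 15 with all arrays.

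**Figure D5:**
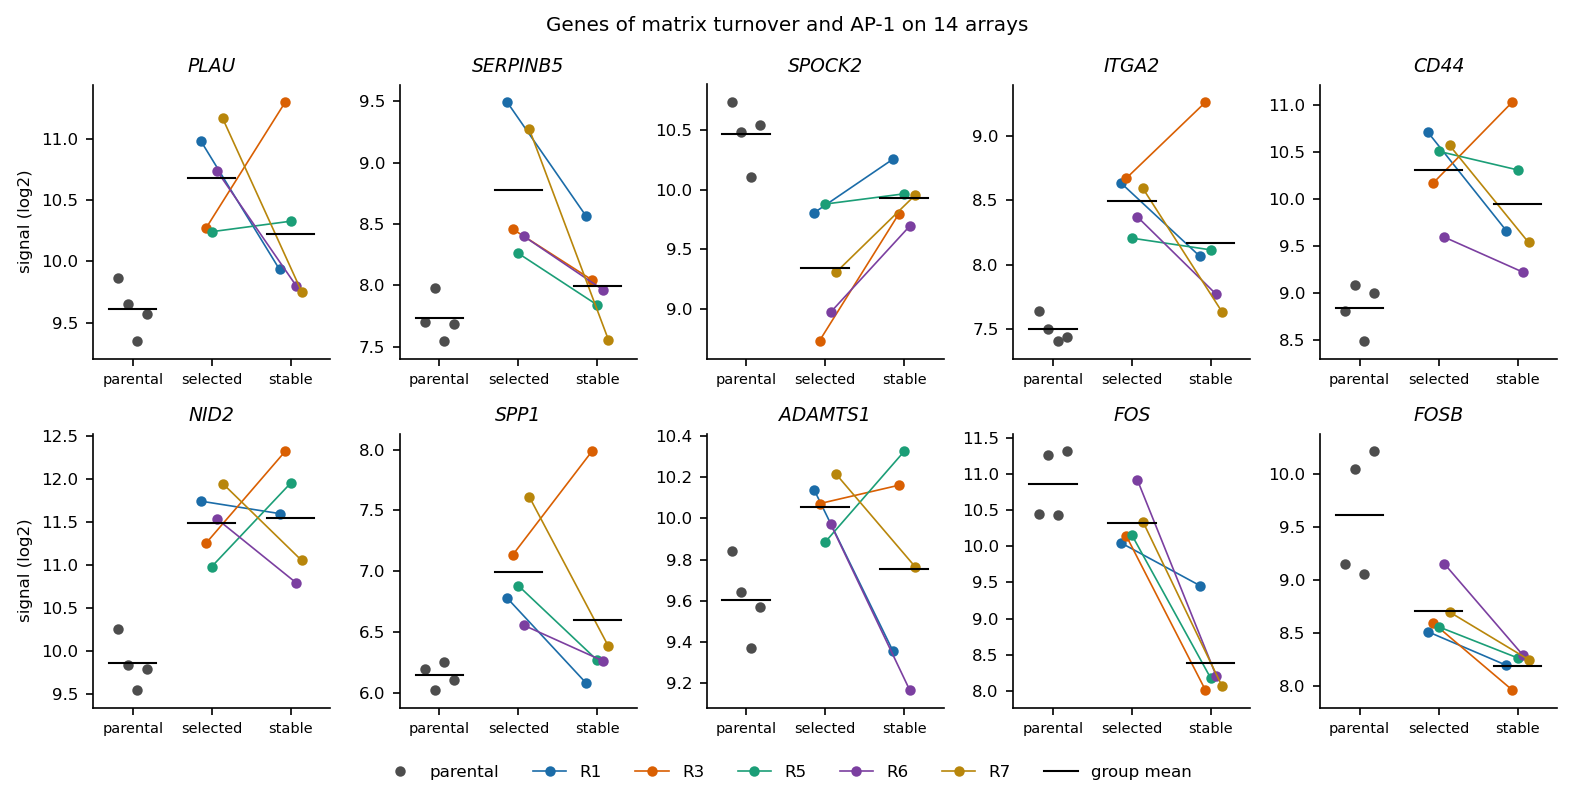
Signal (log2) of 10 genes that act with MMPs or regulate them, on the 14 arrays; grey points are parental arrays, coloured points joined by a line are the selected and stable arrays of 1 subline, black bars are group means, and vertical scales differ. PLAU, SERPINB5, ITGA2, CD44, NID2, SPP1 and ADAMTS1 lie higher, and SPOCK2 lower, on every selected than on every parental array, and 6.81% of all genes lie higher in this way. All genes drawn but FOS were called in this comparison. The stable array of R3 is the highest stable one for PLAU, ITGA2, CD44, NID2 and SPP1.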

How the data were processed

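Per the labels, biotin-labelled RNA of OVCAR-3 cells and resistant sublines (14 samples) was put on whole-transcript arrays from Affymetrix. The values deposited by the authors were used as log2 signal; the base was taken from their range, and how background was corrected and arrays were normalized and summarised is not given in the sources used here, and either step could compress or shift differences. The table has 32295 rows, of which 19148 name 1 gene, 1376 several, and 11771 are unnamed here. Symbols were updated through RefSeq (GRCh38.p14, 19118 rows matched), and 1 row was kept per gene, that of highest mean, giving 18398 genes.

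Members, lists and alternatives were chosen with earlier results of these data known. Samples were grouped by their labels. Every gene was tested with limma 3.58.1 in R 4.3.3 (lmFit, eBayes, two-sided), with Benjamini-Hochberg adjustment and a threshold of 0.05: selected or stable against parental (9 arrays), selected against stable (10 arrays) and an F test between sublines (10 arrays). Subline names pair selected with stable arrays, since both come from 1 cell line; paired deviations from the group means correlated at 0.64 (R1), 0.05 (R3), 0.37 (R5), 0.55 (R6) and -0.47 (R7). No 2 arrays were identical. Genes named are the members, the called list genes (up to 4 each way by smallest p, or the 2 smallest p where none was called), FOS, FOSL1, JUN and the 5 genes most like MMP1 and MMP10. Motifs were searched in RefSeq promoters. The fits were tested on simulated data. Alternatives were array weights, a trended and robust variance, a filter at the 40th percentile, median centring, quantile normalization, the mean of all rows, every row, 1 fit of 14 arrays, the olfactory receptor mean, subline R7 left out, the subline block and each array left out. Against parental cells, leaving out subline R7 and leaving out its 1 array in that comparison are the same fit. Counts of alternatives there include this fit 2 times.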

Additional observations from a re-analysis of the deposited data

Results flagged for a closer look

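MMP1 lay above the parental mean in all 5 selected arrays, by 0.95 on average, and below it in all 5 stable arrays, by 1.21 on average (a difference of -1.21). This opposite direction of the 2 states was not tested. MMP1 was chosen with its selected against stable difference known, and only the 30 named genes were searched, so nothing is read from it. The parental arrays themselves spread from 7.79 to 9.07, with replicate 4 at 8.903 next to selected R6 at 8.904.

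Among 30 genes in 3 groups each, 90 groups in all, 5 held an array far from the others of its group, and chance alone flags about 5% of groups. MMP7 in the stable array of R1 was 5.23, against 5.60 to 5.68 in the other stable arrays. FOS in the stable array of R1 was 9.46, with the nearest other stable array at 8.20. FOSB in the selected array of R6 was 9.16, with the nearest other at 8.70. SPP1 and TNF stood apart in the stable array of R3, at 7.98 (nearest other 6.39) and 8.42 (nearest other 7.22).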

How the results depend on the processing

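Of the members, 1 was called for selected against parental cells, 2 with trended and robust variance, with array weights or with the olfactory receptor mean, 0 with every row tested or without subline R7, and 0 to 1 without single arrays. For stable against parental cells the count of 0 became 2 with array weights and stayed 0 in the other alternatives. For selected against stable cells, the difference with which the members were chosen, the counts are description only: 2 became 3 with the replicate block of paired sublines or 1 fit of 14 arrays, 2 with the replicate block without R7, 1 with the 40th percentile filter (4 members left) or every row tested, 0 without R7 and unblocked or with the replicate block and the olfactory receptor mean together, and 1 to 2 without single arrays. Between sublines limma called 0 in all 10 alternatives (0 to 3 at an unadjusted p under 0.05). Of the 116 list genes the 15 calls in selected cells became 7 with every row tested or with 1 fit of 14 arrays, 8 without R7 and 6 to 15 without single arrays. The 0 calls in stable cells became 1 with quantile normalization, the filter, trended and robust variance or median centring, 7 with array weights, 4 with 1 fit of 14 arrays or the olfactory receptor mean, and 0 to 2 without single arrays, 2 being without stable R1. The cause of these changes was not tested. Signs turned for differences near 0. For MMP3 in selected cells they were 0.0352 with array weights, 0.0215 with quantile normalization, 0.0034 with the olfactory receptor mean, 0.000132 without R7 and -0.0303 to 0.0313 without single arrays. For MMP3 in stable cells they were 0.0362 with array weights, 0.00318 with median centring and -0.058 to 0.0274 without single arrays. MMP7 in stable cells was 0.0558 with array weights and -0.0565 to 0.0551 without single arrays, and MMP14 in selected cells -0.00446 to 0.0585. Dim signal limits MMP3, MMP7, MMP9, MMP10, MMP2 and MMP14.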
